A study of Arabidopsis thaliana with 4 samples.

Results

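The 200 brightest nuclear genes of wild-type Arabidopsis seedlings were taken from 4 whole-genome expression arrays. Of these single-dye arrays, 2 hold RNA from plants labelled wild type (WT), and 2 hold RNA from plants labelled as overexpressing a rice glutathione transferase of the tau class, OsGSTU4, from the constitutive 35S promoter (35S:OsGSTU4). A member is a gene on chromosomes 1 to 5 that has a probe set (a group of probes read as 1 value) matched to that gene alone. Where a gene had several such probe sets, the brightest over all 4 arrays was used, and genes were ranked by the mean log2 signal of the 2 WT arrays. The 200 genes at the top of 13270 were kept, so the members were chosen on their WT signals.

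All plants were Columbia seedlings at day 14, grown on MS medium in 16 h of light and 8 h of dark without stress, and each genotype has 2 biological replicates. The labels do not name the transgenic line, and the study's text names a single line for its arrays, so genotype and line cannot be told apart. The design text once names the overexpressed gene as GRX in place of GST. The labels do not say whether replicates were grown separately, so p-values measure only the spread between these arrays. With 2 arrays against 2, an exact permutation test cannot go below p = 0.333. In whole seedlings, fewer cells of a type and less RNA per cell cannot be told apart.

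Green seedlings put much of their messenger RNA into photosynthesis. Plastid DNA encodes some thylakoid and Rubisco subunits, and nuclear genes encode their partners, which are made in the cytosol and imported. Other transcripts known to be plentiful in seedlings encode ribosomal proteins, glycolytic enzymes, metallothioneins and dehydrins, the hydrophilic proteins that accumulate in drying or chilled tissue.

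The rule orders probe sets by signal, and probes bind with different strength, so the order of 2 genes is not an order of molecule numbers. It also covers only genes matched to a probe set of their own in the tables used here. In the WT arrays, 628 probe sets were at least as bright as the last member: 200 belong to members, 375 have no gene named in the tables used here, 34 match several genes and 19 match organelle genes. The members are therefore the brightest only among nuclear genes matched to a probe set of their own. Some probe sets with no gene named were brighter than every member, with WT means of up to 15.29 against 14.57 for the brightest member. Whether such probe sets measure single nuclear genes cannot be told without their gene names. Most Rubisco small subunit and chlorophyll-binding protein genes had no probe set matched to them alone in these tables.

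Of the 200 members, 51 have a gene name in the tables used here and 149 have a locus tag alone. Over all 13270 genes, 1615 have a name. Function is described for the named members only. All 200 encode proteins, and all but 2 were measured by 1 probe set.

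Over the arrays as a whole, median log2 signals lay between 7.29 and 7.42, and 17 to 167 probe sets per array were listed at 0. The 3′ minus 5′ gap of the actin control probe sets, which grows as RNA is degraded or copied short, was 3.48 and 3.53 in WT and 4.07 and 3.76 in 35S:OsGSTU4. The GAPDH gap was 1.01 and 0.96 against 1.05 and 1.36. Both 35S:OsGSTU4 gaps lay above both WT gaps for each control, and the part of RNA quality in the values that follow was not tested. As a check of the tissue, 2 of 10 leaf markers had a probe set matched to them alone, here called measured. The lower of them, LHCB4.2, stood at 10.76 or above on each array. The 1 measured root marker of 8 lay at 7.11 and 7.17 in WT against 6.79 and 4.50. The 1 measured flower marker of 5 lay at 4.44 and 6.31 against 3.99 and 1.72, and none of the 6 seed markers was measured.

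The members' mean WT signals ran from 12.27 to 14.57 on the log2 scale. They held 25.8% and 27.2% of the summed linear signal of all nuclear genes in the 2 WT arrays, and 24.8% and 26.7% in the 2 35S:OsGSTU4 arrays. Their median signal was 12.81 and 12.88 in WT and 12.78 and 12.85 in 35S:OsGSTU4. The edge of the list is shallow. AT1G19020, AT2G47380 and AT1G51200, the last 3 inside, had WT means of 12.27 each, and AT2G36930, AT2G37660 and AT4G19160, the first 3 outside, had 12.26 each.

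RCA, which encodes Rubisco activase, the chaperone that frees Rubisco of blocking sugar phosphates, had the highest signal of the members. It gave 14.40 and 14.74 in WT and 14.59 and 14.87 in 35S:OsGSTU4, so it ranked first in both genotypes and the groups overlapped. AT3G15450, with a locus tag alone, was next at 14.21 and 14.52 in WT against 14.04 and 14.51. HIRD11 (AT1G54410), a small dehydrin, followed at 14.35 in both WT arrays and 14.17 and 14.48 in 35S:OsGSTU4. The rest of the 10 brightest were PSAE-1, AT5G20290, AT2G45180, CCL, LHCB4.1, AT2G38870 and AT1G25275. Of these 10 genes, 8 were also among the 10 brightest in 35S:OsGSTU4. The exceptions were AT2G38870, from rank 9 to 18, and AT1G25275, from rank 10 to 20.

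AT2G38870 gave 14.37 and 13.99 in WT and 14.04 and 13.64 in 35S:OsGSTU4, and the groups overlapped. AT1G25275 gave 14.26 and 14.09 against 13.84 and 13.72, and both 35S:OsGSTU4 arrays were below both WT arrays. No role is annotated for either in the tables used here.

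**Figure D1:**
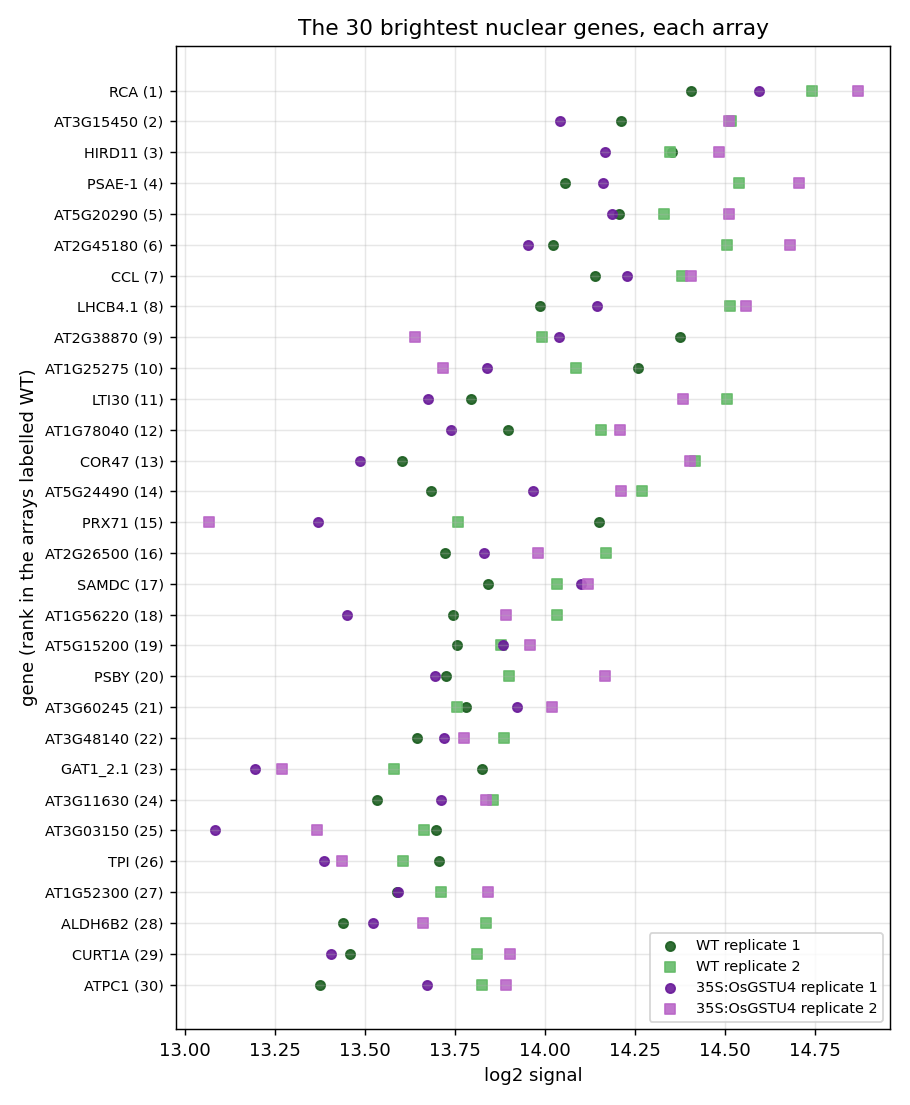
Log2 signal (horizontal axis) of the 30 members with the highest mean WT signal, 1 row per gene with its WT rank, and 1 point per array. Circles are replicate 1, squares replicate 2, green WT and purple 35S:OsGSTU4. RCA lies to the right at 14.40 to 14.87, and for most photosynthesis genes the squares lie to the right of the circles of either colour.

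The list itself was nearly the same in the other genotype. Among the 200 brightest genes of the 35S:OsGSTU4 arrays, 178 were members (89.0%). The ranking did not use those arrays other than to pick between probe sets of 1 gene. Between single arrays the top 200 lists shared 170 genes for the WT pair and 178 for the 35S:OsGSTU4 pair, and 168 to 183 for the 4 pairs across genotypes. The counts across genotypes thus lay on both sides of those within a genotype. The members in the top 200 of every array numbered 155.

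The 22 members outside the top 200 of 35S:OsGSTU4 all ranked 112 or lower in WT. Of these, 21 remained within rank 300 there, and AT3G19390 went from rank 193 to 366. Among the named ones, XTH18, a xyloglucan-remodelling enzyme of the cell wall, went from 112 to 234, AKINBETA1, a regulatory subunit of the SnRK1 energy-sensing kinase, from 169 to 231, and WLIM2b, an actin-bundling LIM protein, from 188 to 208. Conversely, 22 genes that are no members ranked in the top 200 of 35S:OsGSTU4, none of them in the top 100. The highest was AT5G16130, from 230 to 127.

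PORB, the light-dependent protochlorophyllide oxidoreductase of chlorophyll synthesis, had the longest climb of those 22, from 435 to 189. Its signals were 11.16 and 11.79 in WT and 12.03 and 12.55 in 35S:OsGSTU4, with no overlap. AT1G74470, which the tables give as geranylgeranyl reductase, the enzyme that makes the chlorophyll tail, went from 225 to 134. Its signals were 11.92 and 12.37 against 12.47 and 12.71. COR15A, a cold-regulated chloroplast protein, went from 235 to 170, and its WT arrays at 11.22 and 12.99 enclosed both 35S:OsGSTU4 arrays at 12.24 and 12.55. Since the entering genes were chosen for being high in 35S:OsGSTU4, their upward differences are fixed by the choice.

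Differences between the genotypes are given below as 35S:OsGSTU4 minus WT in log2 signal, by the labels. This direction is opposite to that of the study's own list of changed genes at each of its probe sets matched here. Which is right cannot be told from these arrays. The study also reports real-time PCR in which selected GST and antioxidant genes were higher in the transgenic line without stress, as in its list. If the labels were swapped, the members would be the brightest genes of the transgenic arrays, and every difference given here would change sign. The WT arrays also chose the members, and high readings there favour membership, so the differences over members are descriptions and carry no test.

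The median difference over the 200 members was -0.03, with a range from -0.99 to 0.44. Over all 13270 genes it was 0.03. Of the members, 113 had a lower mean in 35S:OsGSTU4 and 87 a higher one (background: 46.7% of all genes had a lower mean). Centred arrays gave 143 lower and 57 higher (54.0% of all genes lower), and quantile-normalised arrays 101 lower and 99 higher (49.8% lower), so the split depends on the scaling. The lean downward also depended on which arrays did the ranking: the median was 0.02 over the 200 genes brightest in 35S:OsGSTU4 and -0.0044 over the 200 brightest in all 4 arrays.

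**Figure D2:**
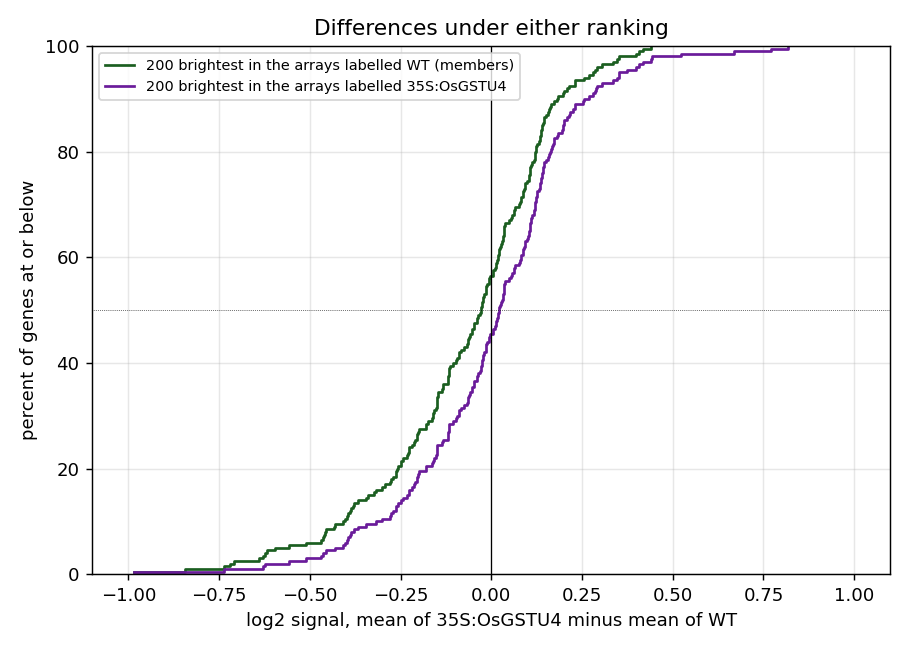
Cumulative percent of genes (vertical axis) with a difference at or below the value on the horizontal axis, in log2 signal, 35S:OsGSTU4 minus WT. The green line holds the 200 brightest genes of the WT arrays and the purple line those of the 35S:OsGSTU4 arrays. The medians are -0.03 and 0.02, and the line ranked on WT lies to the left.

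Between means of the deposited log2 signals, no member differed by 2-fold, while 2715 of all 13270 genes did. AT3G16530 went past 2-fold, at -1.07, with centred arrays. Leaving out WT replicate 2 put 3 members past 2-fold, and leaving out 35S:OsGSTU4 replicate 1 put 2. At a fold of at least 2 with an unadjusted P of at most 0.05 in limma, the thresholds of the study, 0 of 200 members were higher (background 2.57%) and 0 were lower (background 2.49%). At an unadjusted P of at most 0.05 alone, the count was also 0 (background 6.10%), and the smallest P of a member was 0.067. After Benjamini-Hochberg adjustment in limma no member and no other nuclear gene passed 0.05 (background 0%), although the fit with an intensity trend called 2 probe sets, neither of them a member. The methods' t-test gave 6 of 200 members at an unadjusted P of at most 0.05 (background 5.95%) and 0 after adjustment. Because the WT arrays chose the members, nothing is read from these counts.

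Bright probe sets also varied less between replicates. The median size of the difference between the 2 WT arrays was 0.21 over the members and 0.48 over all genes, and between the 2 35S:OsGSTU4 arrays it was 0.19 and 0.40. The median size of the difference between genotype means was 0.14 over the members and 0.36 over all genes. For the next 200 genes in rank order the 3 values were 0.24, 0.16 and 0.18. A difference between means of 2 arrays varies less than one between single arrays, so the genotype value is expected to be the smaller even with no difference between genotypes.

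**Figure D3:**
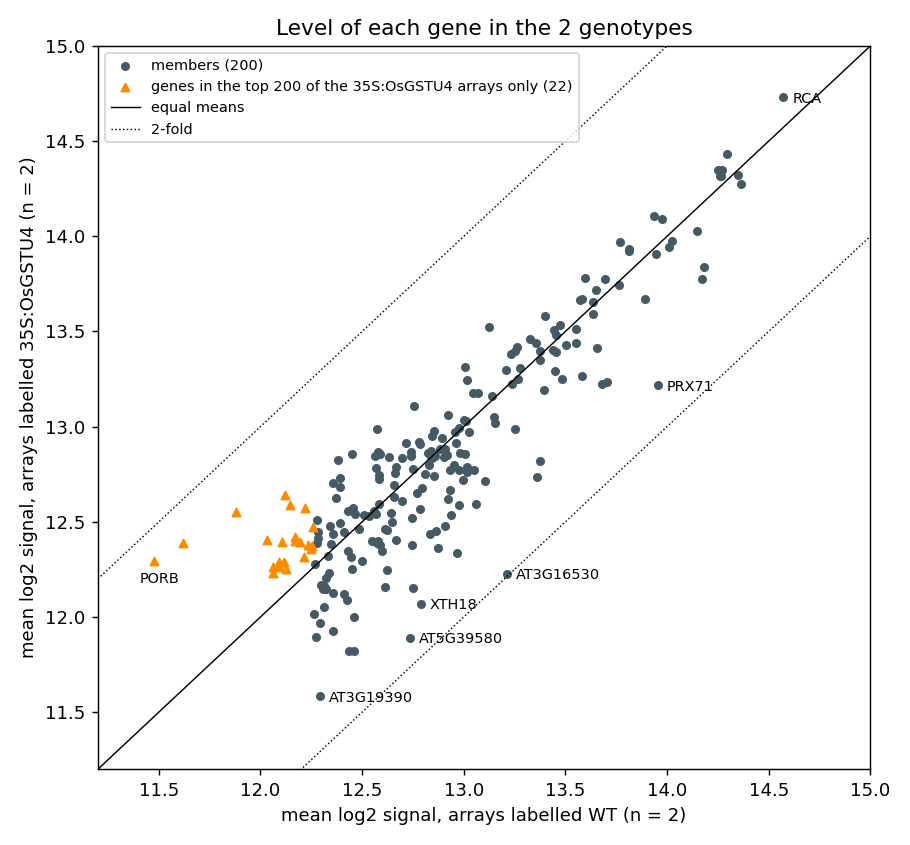
Mean log2 signal in the arrays labelled WT (horizontal axis) against that in the arrays labelled 35S:OsGSTU4 (vertical axis), n = 2 each, for the 200 members (grey) and the 22 genes that are in the top 200 of 35S:OsGSTU4 only (orange). The solid line marks equal means and the dotted lines 2-fold; on these deposited signals no member is beyond 2-fold, and AT3G16530 lies nearest to it at -0.99 (-1.07 with centred arrays).

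Both 35S:OsGSTU4 arrays were below both WT arrays for 51 members (25.5%, background 16.2%), and above both for 25 (12.5%, background 20.4%). Of the next 200 genes in rank order, 60 were below and 30 above. With centred arrays 65 members were below (32.5%, against 20.4% of all genes) and 15 above (7.50% against 15.9%). With quantile-normalised arrays 47 were below (23.5% against 17.8%) and 32 above (16.0% against 18.2%). Another pattern ran across the genotypes. The array of replicate 2 was brighter than that of replicate 1 in both genotypes for 86 members (43.0%, background 29.3%), and dimmer in both for 46 (23.0%, background 23.4%). Of the next 200 genes, 60 were brighter and 64 dimmer in both. These counts depend on the scaling. Centred arrays gave 77 brighter members (38.5%, against 26.6% of all genes) and 54 dimmer ones (27.0% against 26.3%). Quantile normalisation gave 57 brighter (28.5% against 26.3%), near the share of all genes, and 68 dimmer (34.0% against 26.3%).

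Parts of the light reactions are encoded by 9 of the named members, and in each of them replicate 2 was brighter than replicate 1 in both genotypes, in 8 of 9 with centred and 7 of 9 with quantile-normalised arrays. Their mean was also higher in 35S:OsGSTU4 in 9 of 9, with differences from 0.02 to 0.31 and a median of 0.13, but with each array centred on its median in 7 of 9, and without WT replicate 1, or without 35S:OsGSTU4 replicate 2, in 4 of 9. The genotypes overlapped in 8 of the 9 on the deposited scale. Over all genes, both 35S:OsGSTU4 arrays lay above both WT arrays in 20.4% and below in 16.2%.

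PSAE-1, a stromal subunit of photosystem I, was the brightest of these at 14.06 and 14.54 in WT and 14.16 and 14.70 in 35S:OsGSTU4. Another photosystem I subunit, the lumenal PSAN, gave 12.83 and 13.82 against 13.42 and 13.50, and its WT arrays enclosed the others. LHCB4.1, the minor antenna protein CP29, gave 13.99 and 14.51 against 14.14 and 14.56. Each of these 3 genes differed more between the WT arrays than between the genotype means.

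For photosystem II, PSBY, a small membrane subunit, gave 13.73 and 13.90 in WT against 13.70 and 14.17. PSBW, another small subunit, gave 12.95 and 13.06 against 13.04 and 13.59, a difference of 0.31 with a standard error of 0.30 that was 0.03 without 35S:OsGSTU4 replicate 2 and 0.58 without replicate 1. PSB27, which acts in the assembly and repair of the complex, gave 13.42 and 13.47 against 13.11 and 13.90. In PSB27 the 2 35S:OsGSTU4 arrays enclosed the WT arrays, so the difference of 0.06 lay well inside its spread.

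ATPC1, the gamma subunit of the chloroplast ATP synthase, gave 13.37 and 13.82 in WT against 13.67 and 13.89. CURT1A (AT4G01150), which bends thylakoid membranes at grana margins, gave 13.46 and 13.81 against 13.41 and 13.90. PIFI, a chloroplast protein known for its part in electron flow in the dark after illumination, gave 12.53 and 12.63 against 12.75 and 12.98. PIFI alone among the 9 had both 35S:OsGSTU4 arrays above both WT arrays (20.4% of all genes), whereas 3 of the 9 did with quantile-normalised arrays (18.2% of all genes).

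Light-harvesting and photosystem names were found for 13 measured nuclear genes, of which 6 were members. A higher mean in 35S:OsGSTU4 was seen in 11 (53.3% of all genes), and in 10 with centred arrays (46.0% of all genes). None passed the fold and P thresholds upward (background 2.57%) or downward (background 2.49%). The largest difference among the rest was that of LHCB4.2, a second CP29 gene, at 10.76 and 11.55 in WT and 11.73 and 12.33 in 35S:OsGSTU4. It went from rank 586 to 241, and its groups did not overlap. LHCB4.3, the other gene of this family, gave 9.13 and 8.74 against 8.58 and 8.66, the opposite direction. LHCB4.1, the brightest of the family, had a difference of 0.10 (standard error 0.33). Those of LHCB4.2 and LHCB4.3 were 0.87 (standard error 0.44) and -0.32 (standard error 0.26). Whether the 3 CP29 genes differ from each other was not tested.

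Carbon fixation and photorespiration had 4 named members, all of them brighter in replicate 2 of both genotypes (29.3% of all genes). With quantile-normalised arrays it was 2 of the 4 (26.3% of all genes). Beside RCA they were PRK, SBPASE and HPR. PRK, phosphoribulokinase, which makes the sugar that Rubisco uses, gave 12.91 and 13.51 in WT against 13.14 and 13.46. SBPASE, sedoheptulose-bisphosphatase of the same cycle, gave 12.31 and 12.96 against 12.63 and 13.05. HPR, the peroxisomal hydroxypyruvate reductase of photorespiration, gave 12.99 and 13.54 against 13.23 and 13.27. All 4 overlapped between genotypes on the deposited scale, where 20.4% of all genes lay above and 16.2% below. Without WT replicate 1 all 4 differences were negative, while without WT replicate 2 all 4 were positive.

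The seedlings were unstressed, yet 7 named members are known from cold, drought or temperature responses: HIRD11, LTI30, COR47, TIL, RD2, DI19 and SRC2. All 7 had a lower mean in 35S:OsGSTU4 (46.7% of all genes), by 0.02 to 0.41 with a median difference of -0.07. So did all 7 with centred (54.0% of all genes) or quantile-normalised arrays (49.8%). The count was 4 of 7 without WT replicate 2 and 1 of 7 without 35S:OsGSTU4 replicate 1. In 6 of the 7 the genotypes overlapped, and RD2 alone had both 35S:OsGSTU4 arrays below both WT arrays (16.2% of all genes).

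LTI30, a dehydrin induced by low temperature, gave 13.79 and 14.50 in WT and 13.67 and 14.38 in 35S:OsGSTU4. COR47, also a dehydrin, gave 13.60 and 14.41 against 13.49 and 14.40. TIL, a lipocalin that protects membranes in heat and cold, gave 12.72 and 13.33 against 12.76 and 13.19. In these 3 genes the replicates of either genotype stood several times farther apart than the genotype means.

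RD2, a desiccation-responsive protein, gave 12.99 and 12.73 in WT against 12.46 and 12.45, the only one of the 7 with no overlap. SRC2, a C2-domain protein named for its response to cold, gave 12.82 and 12.35 against 12.15 and 12.60. DI19, a drought-induced zinc-finger protein, gave 12.64 and 12.67 against 12.37 and 12.89. SRC2 and DI19 overlapped, and their replicate arrays moved in opposite or unequal ways in the 2 genotypes.

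**Figure D4:**
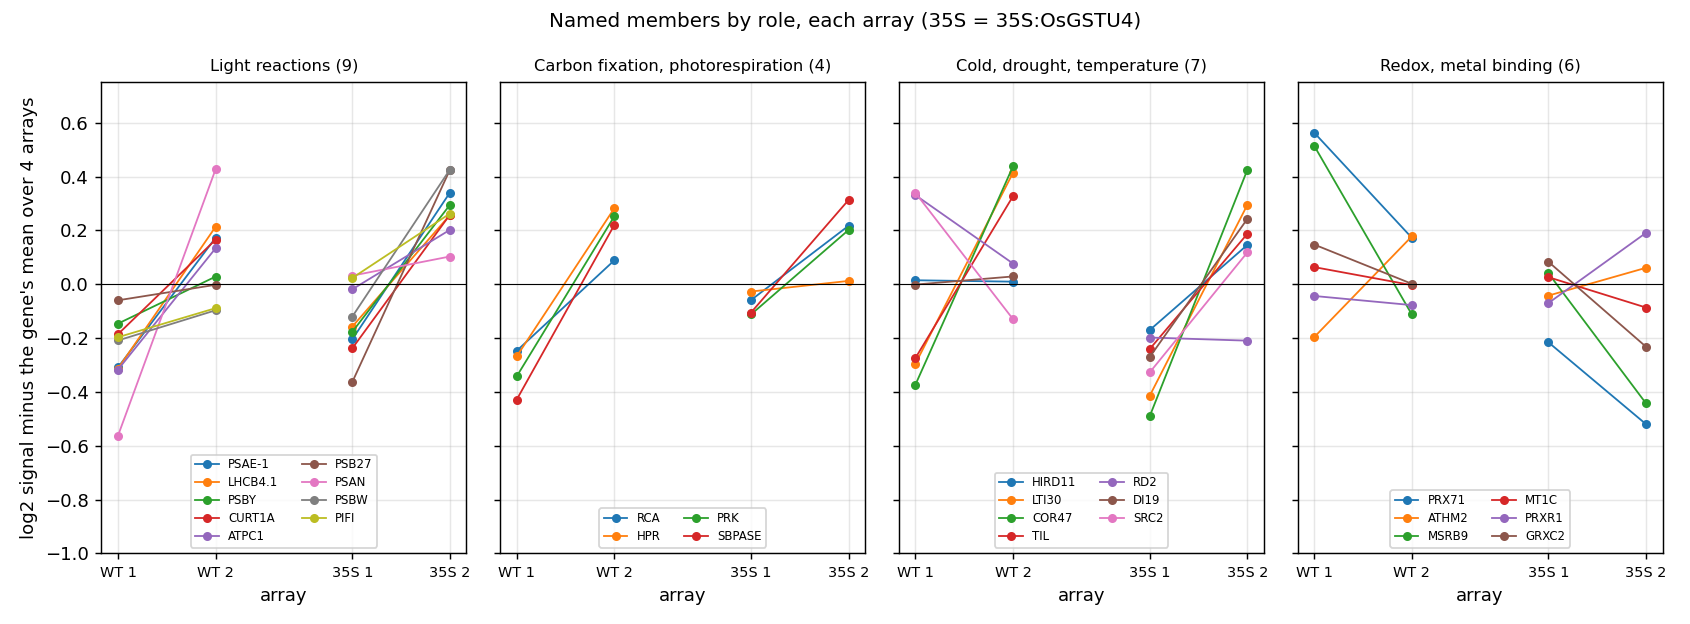
Log2 signal minus the gene's mean over the 4 arrays (vertical axis) for each array (horizontal axis; WT 1 and 2, then 35S:OsGSTU4 1 and 2), 1 colour per gene, lines joining the arrays of 1 genotype. In the light reaction panel all 9 lines lie higher at replicate 2 than at replicate 1 in both genotypes (29.3% of all genes), and 7 or 8 of 9 do under other scalings. In the redox panel PRX71 and MSRB9 lie lower at replicate 2 in both.

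The redox and metal-binding proteins among the named members numbered 6: PRX71, ATHM2, MSRB9, MT1C, PRXR1 and GRXC2. In 4 of the 6 replicate 1 was the brighter array in both genotypes (23.4% of all genes), the reverse of the photosynthesis genes. The count was the same with centred or quantile-normalised arrays (26.3% of all genes in each). PRX71 (AT5G64120), a secreted class III peroxidase, was the brightest. It gave 14.15 and 13.76 in WT and 13.37 and 13.07 in 35S:OsGSTU4, a difference of -0.74 (standard error 0.29) with no overlap, and its rank went from 15 to 58. MSRB9, a methionine sulfoxide reductase, gave 13.25 and 12.62 against 12.78 and 12.29, with overlap.

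The other 4 differed by at most 0.15. ATHM2, a chloroplast thioredoxin of the m type, gave 12.77 and 13.14 in WT against 12.92 and 13.03. MT1C, a metallothionein, gave 12.93 and 12.87 against 12.90 and 12.78. PRXR1, another peroxidase, gave 12.80 and 12.77 against 12.78 and 13.04, and GRXC2, a glutaredoxin, gave 12.72 and 12.58 against 12.66 and 12.34. Redox and detoxification names were found for 39 measured genes, of which 5 were members. The keywords placed MSRB9 with carbon and nitrogen metabolism instead. Of the 39, 16 had a higher and 23 a lower mean (46.7% of all genes lower). With centred arrays it was 11 and 28 (54.0% of all genes lower). None passed the thresholds upward (background 2.57%) or downward (background 2.49%).

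The defence members were PYK10, LCR69 and JAL34. PYK10, a beta-glucosidase of endoplasmic reticulum bodies best known from roots and hypocotyls, gave 13.47 and 13.50 in WT and 13.30 and 13.20 in 35S:OsGSTU4, with no overlap. JAL34, a jacalin-type lectin, gave 13.10 and 12.85 against 13.04 and 12.13. LCR69, a small cysteine-rich protein of the defensin type, gave 13.42 and 13.53 against 13.56 and 13.52. The single measured root marker was also lower in both 35S:OsGSTU4 arrays than in either WT array, and its part in the PYK10 values was not tested. Names of defence, glucosinolate or stress genes were found for 32 measured genes, a set without PYK10 and LCR69. Of these, 4 were members: JAL34 and the cold and drought genes HIRD11, COR47 and DI19. A lower mean was seen in 25 of the 32 (46.7% of all genes). The thresholds were passed downward by 1 (background 2.49%) and upward by none (background 2.57%).

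Metabolism and respiration had 12 named members, of which 10 had a lower mean in 35S:OsGSTU4 (46.7% of all genes), and the median difference was -0.14. In 5 of the 12 both 35S:OsGSTU4 arrays were below both WT arrays (16.2% of all genes). With centred arrays this held in 7 (20.4% of all genes), and with quantile-normalised arrays in 4 (17.8%). Under quantile normalisation 8 of the 12 had a lower mean, and without WT replicate 2 (median -0.27) or without 35S:OsGSTU4 replicate 1 it was 7 of 12. SAMDC, S-adenosylmethionine decarboxylase of polyamine synthesis, was the brightest at 13.84 and 14.03 in WT against 14.10 and 14.12, with no overlap. GAPC2, cytosolic glyceraldehyde-3-phosphate dehydrogenase and a common reference gene, gave 13.45 and 13.35 against 13.49 and 13.68. These were the 2 of the 12 with both 35S:OsGSTU4 arrays above (20.4% of all genes). TPI, triosephosphate isomerase, the neighbouring step of glycolysis, gave 13.71 and 13.60 against 13.39 and 13.44, the opposite direction.

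GAT1_2.1, a glutamine amidotransferase-like protein, had the largest difference of the 12, with 13.83 and 13.58 in WT against 13.19 and 13.27. ALDH7B4, an aldehyde dehydrogenase known to respond to osmotic stress, gave 13.11 and 13.10 against 12.79 and 12.65. FDH, mitochondrial formate dehydrogenase, gave 13.22 and 12.88 against 12.69 and 12.85. CYTC-1, a cytochrome c of the respiratory chain, gave 13.06 and 12.84 against 12.82 and 12.78. In each of these 4 genes both 35S:OsGSTU4 arrays lay below both WT arrays, though FDH and CYTC-1 had 1 array of each genotype close together.

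The other 5 overlapped. ALDH6B2 and MCCA, a dehydrogenase and a carboxylase subunit of branched-chain amino acid breakdown, had differences of -0.05 and -0.07. The cytosolic isocitrate dehydrogenase cICDH had -0.14, pyruvate orthophosphate dikinase PPDK had -0.30, and GME, the GDP-mannose epimerase of ascorbate synthesis, had -0.0027. Among 57 measured genes with names of carbon or nitrogen metabolism, 8 were members, MSRB9 among them. Of the 57, 26 had a higher and 31 a lower mean (46.7% of all genes lower). None passed the thresholds upward (background 2.57%) or downward (background 2.49%).

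Cell structure and regulation had 8 named members. XTH18 gave 13.06 and 12.52 in WT and 11.81 and 12.32 in 35S:OsGSTU4, a difference of -0.72 (standard error 0.36) with no overlap. Leaving out WT replicate 1 gave -0.45, and leaving out 35S:OsGSTU4 replicate 1 gave -0.47. UBC28, a ubiquitin-conjugating enzyme, gave 13.76 and 13.41 against 13.07 and 13.46. TUA6, an alpha-tubulin, gave 12.17 and 12.52 against 12.27 and 12.50, and held rank 181 against 175. The remaining named genes of this kind, APA1 (an aspartic protease), HTB4 (histone H2B), AKINBETA1, NCL (AT1G53210, a cation exchanger) and WLIM2b, differed by -0.34 to 0.34 and overlapped. Tubulin genes TUB6 and TUB5, also taken as reference genes, were no members. TUB6 differed by 0.15, with overlap. TUB5 gave 10.56 and 10.86 in WT against 11.10 and 11.31, a difference of 0.50 with no overlap. The named members CCL and AILP1 are given no role here. CCL gave 14.14 and 14.38 against 14.23 and 14.40 and stayed at rank 7.

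Of the 149 members with a locus tag alone, 84 had a lower and 65 a higher mean (46.7% of all genes lower), with a median difference of -0.03. AT3G16530 had the largest difference of all members, -0.99 (standard error 0.45), with 13.63 and 12.80 in WT and 12.54 and 11.92 in 35S:OsGSTU4. It depended on single arrays, with -0.57 without WT replicate 1 and -1.40 without WT replicate 2. AT5G39580 gave 13.03 and 12.44 against 11.98 and 11.81, a difference of -0.84 (standard error 0.32), or -0.55 without WT replicate 1. Neither overlapped, and both also differed between the WT arrays by more than 0.5.

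AT3G19390, the member that lost the most places, gave 12.19 and 12.40 in WT against 11.85 and 11.32. Its difference of -0.71 was -0.44 without 35S:OsGSTU4 replicate 2. AT2G25450 gave 12.80 and 13.14 against 12.11 and 12.56. The remaining 4 of the 10 lowest were AT3G02360, AT5G16010, AT4G34180 and AT1G19530, with differences of -0.64 to -0.60. For all 10 the 2 35S:OsGSTU4 arrays lay below both WT arrays (16.2% of all genes), a direction that the choice by size of difference helps to set.

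The largest differences in the other direction were smaller. AT3G58610 gave 12.11 and 12.66 in WT and 12.91 and 12.74 in 35S:OsGSTU4, a difference of 0.44 (standard error 0.31). AT5G65220 gave 12.46 and 12.68 against 13.01 and 12.97, and AT4G30650 gave 12.23 and 12.67 against 12.78 and 12.93. AT3G62870 gave 13.11 and 13.14 against 13.64 and 13.40. In these 4 genes both 35S:OsGSTU4 arrays lay above both WT arrays (20.4% of all genes), which the choice by size of difference helps to set. The WT replicates of AT3G58610 and AT4G30650 stood farther apart than the genotype means. Without WT replicate 1 the differences of these 2 genes were 0.17 and 0.18.

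The 10 largest upward differences also held AT1G11860, with 12.60 and 12.91 in WT against 13.09 and 13.12. AT5G02870 gave 12.32 and 12.39 against 12.92 and 12.49, and AT1G77940 gave 12.42 and 12.36 against 12.76 and 12.61. None of these 3 overlapped, which the same choice helps to set, and the others of the 10 were NCL, PSBW and PIFI.

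AT5G62360 had the least even replicates of all members, with 11.43 and 13.13 in WT and 11.57 and 13.33 in 35S:OsGSTU4. Replicate 2 was thus brighter by 1.70 and 1.76, while the genotype means differed by 0.16. AT1G19020, near the edge of the list, gave 12.81 and 11.74 in WT against 12.02 and 11.77, the widest WT gap in the other sense.

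Members were spread over the chromosomes much as the measured genes were. Chromosomes 1 to 5 held 51, 31, 49, 25 and 44 of the 200 members, and 25.8%, 16.4%, 20.6%, 14.6% and 22.6% of all measured nuclear genes. The largest gap was on chromosome 3, with 24.5% of members against 20.6%. Members that are direct neighbours on a chromosome formed 5 pairs, and the next 9 sets of 200 genes in rank order held 0 to 3 each. PRX71 was paired with AT5G64130, and AT5G39580 with AT5G39570, so 2 of the 3 members with the lowest differences each had another bright gene beside them. Those neighbours, AT5G64130 and AT5G39570, differed by only -0.02 and -0.05, with overlap. AT5G62360 was paired with AT5G62350.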

How the data were processed

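The deposited values are log2 signals of 22810 Affymetrix probe sets on 4 arrays. The submitters' processing notes name RMA, but the values look like MAS5-type signals scaled by the authors: each array's trimmed mean linear signal was 499.8 and the lowest value is 0. How the log2 values were made is otherwise not given in the sources used here. After 64 control probe sets were left out, 22746 were tested with limma 3.58.1 in R 4.3.3 (lmFit, eBayes, Benjamini-Hochberg over all of them), with no further normalisation. Of 13513 probe sets with 1 gene, 13436 were matched to RefSeq TAIR10.1 through Entrez ID and 72 through the symbol. The tables hold no gene descriptions, so keyword groups were read on symbols and synonyms, and roles were assigned by hand once the names were seen. Genes named are the 30 brightest (some in the plot only), the 3 on each side of the edge, the brightest of each role, the 10 largest differences each way, reference genes and genes far from their WT rank; a few others were chosen after their values were seen. The members and lists were chosen with earlier results of these data known. The fit was tested on simulated data. Arrays give no read depth, and their number limits the precision.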

Additional observations from a re-analysis of the deposited data

How the results depend on the processing

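The share of members among the brightest genes of 35S:OsGSTU4 was 80% to 90.5% under all alternatives, and 87% to 89.5% without 1 array. The median difference of the members, -0.0284 as reported, was -0.1125 after the arrays were centred on their medians, -0.0868 and 0.0734 for members ranked on WT array 1 or 2 alone, 0.0211 for members ranked on the 35S:OsGSTU4 arrays, and -0.1067 to 0.0259 without 1 array. No member passed the fold and P thresholds, except AT5G39580 in the fit without WT replicate 2 (0 to 1 members without 1 array), which also gave 1 when members were ranked on WT array 2 alone. No member had an adjusted p under 0.05 in any limma fit or the methods' t-test. With the replicate block in limma, 0 members passed either threshold, and 1 member (0.500%, against 6.65% of all genes) reached an unadjusted P of at most 0.05. The probe sets past fold and P there numbered 1301 in place of 1074. That total was 583 with an intensity trend, 96 for the brighter probe sets alone, 479 by the t-test, and 1286 to 1815 without 1 array. At an unadjusted P of at most 0.05, 11 members (5.50%) were called with the trend, against 5.83% of all genes, and 9 (4.50%) among the brighter probe sets, against 7.58%. The labels do not say what a replicate number shares, and 2 pairs are too few to settle it. The replicate differences of the 2 genotypes correlated at r = 0.537 over the 200 members, 0.382 over the next 200 genes and 0.041 over all 13270 genes, across genes on the same arrays. Of 462 values of role groups and single genes under other scalings or without 1 array, 19 moved by more than the spread between replicates; the defence median, -0.23, was 0.07 without 35S:OsGSTU4 replicate 2. The cause was not tested. Promoter motif shares were not run. No detection calls or background readings were used here, so signal over background was not measured.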
